A study of Homo sapiens with 12 samples.

Results

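The genes described are 10 of the 26364 rows of a read-count table from the human breast cancer cell line MDA-MB-231: the transcription factor genes SNAI1, SNAI2, ZEB1 and ZEB2, the cadherin genes CDH1, CDH2 and CDH11, the intermediate filament gene VIM and the surface receptor genes AXL and CD44. They were chosen by symbol, with earlier results of these data known, and all 10 passed the filter on low counts. MDA-MB-231 is a triple-negative line with a mesenchymal form. Wells were treated for 24 h in 4 groups of 3: 1 µM dexamethasone (DEX) together with 8 µM SH4-54, 1 µM DEX, 8 µM SH4-54, or no drug. DEX is a synthetic agonist of the glucocorticoid receptor, and SH4-54 is a small-molecule inhibitor of the transcription factors STAT3 and STAT5. All groups were grown for 24 h before treatment. The sources used here do not say what vehicle the untreated wells received. Since the replicates are wells of 1 line, p-values reflect only the spread among wells, which may be technical.

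Epithelial-mesenchymal transition, EMT, is the loss of cell-cell adhesion and the gain of a motile form by epithelial cells. SNAI and ZEB proteins are zinc-finger factors that bind E-box motifs and repress CDH1, which encodes the adhesion protein E-cadherin. Vimentin, N-cadherin (CDH2) and cadherin-11 (CDH11) mark mesenchymal cells. AXL, a receptor tyrosine kinase with the ligand GAS6, and CD44, a receptor for hyaluronan, are often abundant in mesenchymal-like breast cancer lines.

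The promoters of VIM, AXL and CD44 are shown because these 3 genes fell with DEX and were higher with both compounds than with DEX. SNAI1 was called the same way, but its promoter was not among those searched. Each printed promoter runs from 250 bases before to 50 bases after the gene's most upstream listed start on the + strand (RefSeq, GRCh38.p14). Any other listed start was not searched. The windows are chr10:17227991-17228290 for VIM, chr19:41218973-41219272 for AXL and chr11:35138921-35139220 for CD44. Capitals mark CAGGTG, the core E-box of SNAI and ZEB proteins, on either strand.
VIM: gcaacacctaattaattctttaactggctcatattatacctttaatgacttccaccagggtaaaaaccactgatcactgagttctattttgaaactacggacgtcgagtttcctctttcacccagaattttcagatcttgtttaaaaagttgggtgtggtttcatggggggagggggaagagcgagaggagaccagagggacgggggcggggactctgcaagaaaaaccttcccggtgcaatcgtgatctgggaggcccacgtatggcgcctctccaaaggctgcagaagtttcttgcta
AXL: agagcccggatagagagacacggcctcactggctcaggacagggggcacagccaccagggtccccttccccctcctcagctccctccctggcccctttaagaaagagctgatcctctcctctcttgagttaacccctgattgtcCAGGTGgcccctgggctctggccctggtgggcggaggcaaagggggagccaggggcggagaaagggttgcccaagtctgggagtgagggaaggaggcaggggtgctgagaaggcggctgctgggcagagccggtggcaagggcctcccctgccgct
CD44: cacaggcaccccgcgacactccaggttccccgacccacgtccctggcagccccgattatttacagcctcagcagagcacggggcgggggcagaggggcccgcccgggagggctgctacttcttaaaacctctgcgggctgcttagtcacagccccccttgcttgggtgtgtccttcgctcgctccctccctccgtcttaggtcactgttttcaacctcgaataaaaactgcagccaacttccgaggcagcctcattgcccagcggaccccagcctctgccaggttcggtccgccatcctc

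The search covered 6 of the 10 genes: ZEB1, ZEB2, VIM, CDH2, AXL and CD44. Promoters of the 10 genes on chromosome 8 were left out before the search. SNAI1, SNAI2, CDH1 and CDH11 were not searched, so nothing is said of their promoters. Only the most upstream listed start of each gene was used. CAGGTG was found in 2 of the 6, AXL and ZEB1, and in 20.6% of 34943 promoters of the same length. TGANTCA, the AP-1 motif, is in 7.72% of all promoters, AGAACA, the repeated element of the glucocorticoid response element, in 14.8%, and TTCNNNGAA, the STAT motif, in 7.66%, each searched on both strands. None of these 3 strings was in the 6 windows. These are matches of letters and not binding sites.

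Depth was 26280158 to 35758236 counted reads per library with both compounds, 26040956 to 29426776 with DEX, 25577213 to 28864061 with SH4-54 and 28439725 to 31552360 without drug. Levels are in CPM, read counts divided by the scaled library size. Differences are log2 fold changes with their standard error, from edgeR's quasi-likelihood test on all 14184 genes with enough counts, and every adjusted p is a Benjamini-Hochberg value over those genes, with a threshold of 0.05. After ±, a CPM is followed by its SD over 3 wells and a log2 fold change by its standard error. In such bulk samples, fewer cells of a type and less RNA per cell cannot be told apart. Of the 3 receptor genes that define triple-negative tumours, ESR1 and PGR were below 0.4 CPM on average in every group. The third, ERBB2, averaged 84.9 CPM with both compounds, 86.3 with DEX, 75.9 with SH4-54 and 76.0 without drug, and rose with DEX against no drug (0.18 ± 0.039, edgeR adjusted p = 0.00123). Of 9 markers of immune, endothelial and fibroblast cells, none was at 0 in every library. Their summed level was 49.4 to 55.6 CPM with both compounds, 38.3 to 41.3 with DEX, 49.2 to 49.8 with SH4-54 and 43.7 to 46.9 without drug. Most of it was CD68, a macrophage marker that tumour cells also express, at 49.2, 37.2, 46.2 and 42.3 CPM in the same order. Of the 6 markers tested, 1 rose and 3 fell with DEX against no drug, where 21.9% and 23.2% of all tested genes did. The fibroblast marker DCN averaged 0.987 CPM with DEX and 0.0117 without drug and was called higher (edgeR adjusted p = 5.54e-06). CD68, the leukocyte marker PTPRC (0.123 CPM with DEX and 0.366 without drug, edgeR adjusted p = 0.0125, or 0.0544 without DEX replicate 1) and the endothelial marker PECAM1 (0.466 and 0.965 CPM in the same order, edgeR adjusted p = 0.00958) were called lower. The part of these markers in the results below was not tested.

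With DEX against no drug, 1 of the 10 genes rose and 5 fell, while 21.9% of all tested genes rose and 23.2% fell. The median log2 fold change of the 10 was -0.30, against -0.01 over all tested genes. With SH4-54 against no drug, 0 of the 10 passed by edgeR or by DESeq2, and 0.599% of all genes did in either direction. At an unadjusted p below 0.05, 2 of the 10 passed, SNAI1 and CD44. Against no drug, both compounds gave 2 rises and 6 falls, with 21.1% and 21.6% of all genes. Against DEX, they gave 4 rises and 2 falls, with 13% and 13.5% of all genes. Against SH4-54, they gave 2 rises and 5 falls, with 20.1% and 20.3% of all genes. The interaction tests whether the SH4-54 effect differed with and without DEX. In it, 2 of the 10 were positive and passed the adjusted threshold, as did 2.44% of all genes.

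**Figure D1:**
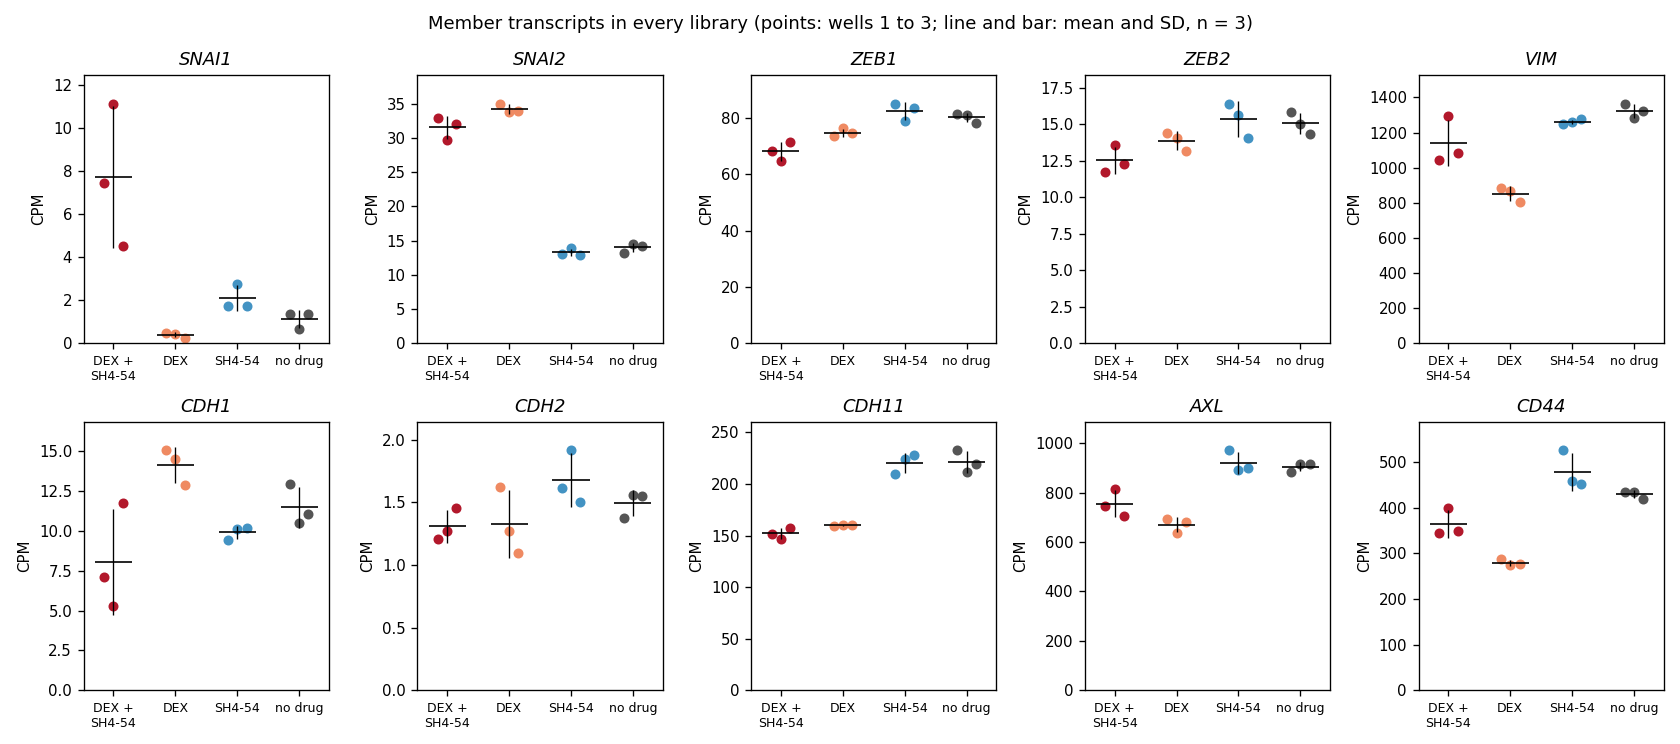
CPM of each of the 10 genes (vertical axis, from 0) in the 3 wells of each group, with both compounds, DEX, SH4-54 and no drug from left to right; points are wells, the horizontal line is the mean and the bar its SD (n = 3). SNAI1 is highest in the combination wells (4.54 to 11.1 CPM), and SNAI2 is near 30 CPM or above only in the wells with DEX.

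SNAI1 and SNAI2, which encode the related repressors Snail and Slug, moved in different ways. SNAI1 had 7.46, 11.1 and 4.54 CPM with both compounds, 0.503, 0.445 and 0.264 with DEX, 1.75, 2.78 and 1.74 with SH4-54, and 1.35, 0.663 and 1.37 without drug. These levels rest on few reads: 192, 307 and 162 counts with both compounds, 13, 13 and 7 with DEX, 51, 74 and 45 with SH4-54, and 43, 20 and 39 without drug. Every combination well lay above every other well, and every DEX well lay below every other well. Both compounds against DEX gave a log2 fold change of 4.22 ± 0.40 (edgeR adjusted p = 8.62e-06), an 18.7-fold difference with a 95% interval from 10.4 to 33.6. SNAI1 was also higher with both compounds than with SH4-54 (1.87 ± 0.30, edgeR adjusted p = 0.000164) and than without drug (2.76 ± 0.32, edgeR adjusted p = 7.42e-06).

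With DEX alone SNAI1 was lower than without drug (-1.47 ± 0.52, edgeR adjusted p = 0.0311). That call rests on single wells. Its adjusted p was 0.0676 or 0.106 without DEX replicate 2 or 3, and 0.0956 or 0.0886 without no-drug replicate 1 or 3. With SH4-54 alone the log2 fold change was 0.89 ± 0.38 and did not pass (edgeR adjusted p = 0.339, 95% interval 0.08 to 1.69). The DEX effect on SNAI1 thus had opposite signs without and with SH4-54, and the interaction was 3.34 ± 0.59 (edgeR adjusted p = 0.00949, at most 0.0349 when any 1 of the 12 libraries was left out).

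SNAI2 had 32.9, 29.7 and 32.1 CPM with both compounds, 35.0, 33.8 and 33.9 with DEX, 13.0, 13.9 and 12.9 with SH4-54, and 13.3, 14.5 and 14.2 without drug. Every well with DEX, alone or combined, was above every well without it. SNAI2 rose 2.44-fold with DEX against no drug (1.29 ± 0.055 on the log2 scale, edgeR adjusted p = 1.08e-10) and 2.37-fold with both compounds against SH4-54 (1.248 ± 0.056, edgeR adjusted p = 2.84e-10). SH4-54 gave -0.12 ± 0.051 in the presence of DEX (edgeR adjusted p = 0.104, 95% interval -0.23 to -0.01) and -0.08 ± 0.059 in its absence (edgeR adjusted p = 0.626, -0.20 to 0.05). The interaction was -0.04 (95% interval -0.21 to 0.13). SNAI1, by contrast with its relative, was lowest where only DEX was given.

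ZEB1 and ZEB2, the other pair of CDH1 repressors, were lower with both compounds than with SH4-54 or no drug. ZEB1 had 68.2, 64.9 and 71.6 CPM with both compounds, 73.5, 76.3 and 74.5 with DEX, 85.1, 79.0 and 83.6 with SH4-54, and 81.4, 81.0 and 78.2 without drug. The combination wells were the lowest 3 of the 12. ZEB1 was lower with both compounds than without drug (-0.23 ± 0.041, edgeR adjusted p = 0.000314) and than with SH4-54 (-0.27 ± 0.041, edgeR adjusted p = 8.45e-05). Against DEX the difference was -0.13 ± 0.041 (edgeR adjusted p = 0.0285). That call was lost without combination replicate 1 or 2 (adjusted p = 0.0689 or 0.129), without DEX replicate 2 or 3 (0.101 or 0.0642) and in a fit of the compared groups only (0.0693). DEX against no drug gave -0.10 ± 0.041, which did not pass (edgeR adjusted p = 0.0562) but did without combination replicate 2 in the shared fit (0.0372) and in a fit of the compared groups only (0.0343).

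ZEB2 was the less abundant of the pair, with 11.7, 13.6 and 12.3 CPM with both compounds, 14.4, 14.1 and 13.15 with DEX, 16.4, 15.6 and 14.05 with SH4-54, and 15.8, 15.02 and 14.3 without drug. It was lower with both compounds than without drug (-0.27 ± 0.073, edgeR adjusted p = 0.00845) and than with SH4-54 (-0.30 ± 0.074, edgeR adjusted p = 0.00514). The combination wells overlapped the DEX wells, and that difference of -0.15 did not pass (edgeR adjusted p = 0.162, 95% interval -0.31 to 0.01). ZEB1-AS1, transcribed from the opposite strand beside ZEB1, passed no comparison.

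**Figure D2:**
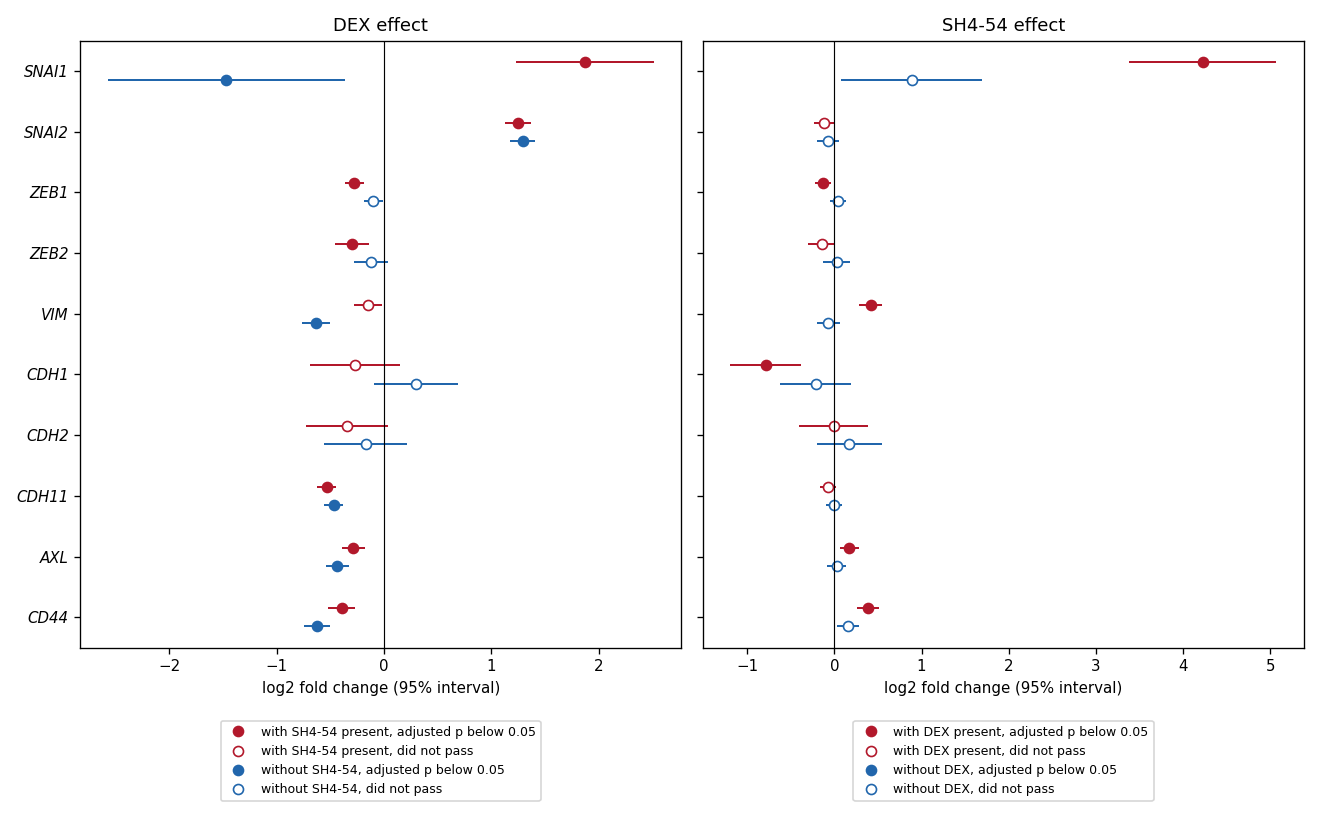
Log2 fold changes of the 10 genes with 95% intervals (horizontal axis): on the left the DEX effect with and without SH4-54, on the right the SH4-54 effect with and without DEX; filled points passed an adjusted p of 0.05. The DEX effect on SNAI1 lies on opposite sides of 0 (1.87 with SH4-54, -1.47 without), and no SH4-54 effect without DEX is filled.

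The cadherins did not move as a group. CDH1 had 7.11, 5.29 and 11.8 CPM with both compounds, 15.05, 14.5 and 12.9 with DEX, 9.45, 10.1 and 10.2 with SH4-54, and 12.9, 10.5 and 11.04 without drug. All 3 combination wells were below the DEX wells, and replicate 3 lay apart from the other 2, inside the range of the untreated wells. CDH1 was 1.72-fold lower with both compounds than with DEX (-0.79 ± 0.19 on the log2 scale, edgeR adjusted p = 0.00779). It did not pass with DEX against no drug (0.30 ± 0.18, edgeR adjusted p = 0.203) or with both compounds against no drug (-0.49 ± 0.19, edgeR adjusted p = 0.0542). Both compounds against SH4-54 gave -0.27 ± 0.20 (edgeR adjusted p = 0.294), and the interaction was -0.57 ± 0.27 (edgeR adjusted p = 0.238).

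Single combination wells decide several CDH1 values. Both compounds against DEX passed with any 1 library left out, but its log2 fold change was -1.21 without combination replicate 3 (edgeR adjusted p = 7.23e-06) and ranged from -1.21 to -0.56 over the 12 fits. Without combination replicate 3, CDH1 was lower with both compounds than without drug (-0.90, edgeR adjusted p = 4.52e-05) and than with SH4-54 (-0.69, 0.000589), the interaction was -1.004 (0.00121), and DEX against no drug passed (0.0176). DEX against no drug also passed in a fit of the compared groups only (0.00807). Among the 3 combination wells SNAI1 was highest in replicate 2 and lowest in replicate 3, and CDH1 the reverse. The second principal component of all genes placed these wells at -22.3, -31.4 and -13 for replicates 1, 2 and 3, while the other groups lay at 15.9 to 17.9 with DEX, -6.52 to -2.11 with SH4-54 and 7.26 to 10.9 without drug. With 3 wells this order is a description, and its part in the CDH1 values was not tested.

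**Figure D3:**
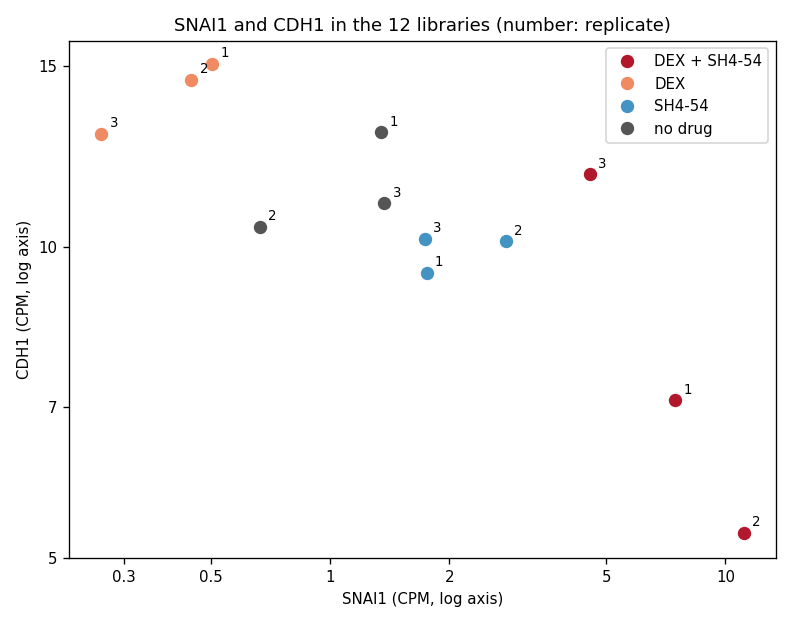
CDH1 against SNAI1 in the 12 libraries, in CPM on log axes, coloured by group and numbered by replicate. The DEX wells have the least SNAI1 (0.264 to 0.503 CPM) with 12.9 to 15.05 CPM of CDH1, and combination replicates 1 and 2 the most SNAI1 with the least CDH1.

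CDH2 was scarce, with 1.204, 1.27 and 1.46 CPM with both compounds, 1.62, 1.27 and 1.09 with DEX, 1.62, 1.91 and 1.51 with SH4-54, and 1.38, 1.56 and 1.55 without drug. It passed no comparison, and its 95% intervals were wide: -0.56 to 0.22 for DEX against no drug and -0.40 to 0.39 for both compounds against DEX. CDH11 was the most abundant cadherin, with 152, 147 and 158 CPM with both compounds, 159, 160.1 and 160.2 with DEX, 209, 224 and 228 with SH4-54, and 233, 212 and 219 without drug. All wells with DEX were below all wells without it. CDH11 fell with DEX against no drug (-0.47 ± 0.041, edgeR adjusted p = 2.79e-07) and with both compounds against SH4-54 (-0.54 ± 0.041, edgeR adjusted p = 9.92e-08). SH4-54 gave -0.07 in the presence of DEX (95% interval -0.16 to 0.02) and 0.00 in its absence (-0.09 to 0.08), and neither passed.

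VIM, AXL and CD44, whose promoters are printed above, fell with DEX and were higher when SH4-54 was added to it. VIM had 1045, 1292 and 1083 CPM with both compounds, 884, 869 and 805 with DEX, 1251, 1258 and 1275 with SH4-54, and 1365, 1284 and 1325 without drug. The DEX wells were the lowest 3 of the 12. VIM fell 1.55-fold with DEX (-0.64 ± 0.062 on the log2 scale, edgeR adjusted p = 8.03e-07). It was higher with both compounds than with DEX (0.42 ± 0.062, edgeR adjusted p = 0.000302), and the interaction was 0.49 ± 0.087 (edgeR adjusted p = 0.00949, at most 0.033 with any 1 library left out). Against no drug it was lower with both compounds (-0.22 ± 0.061, edgeR adjusted p = 0.0103), though not without combination replicate 1 (0.0567). Against SH4-54 the difference was -0.15 ± 0.061 and did not pass (edgeR adjusted p = 0.072). It passed without combination replicate 2 (0.000336), with DESeq2 (0.0371) and with no count filter (0.0162).

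VIM-AS1 is transcribed from the opposite strand beside VIM, and whether the counting used strand is not given, so reads of the 2 rows cannot be told apart. It averaged 2.59 CPM with both compounds, 1.76 with DEX, 3.32 with SH4-54 and 4.15 without drug, and fell with DEX (-1.24 ± 0.15, edgeR adjusted p = 6.57e-06). Both compounds against DEX gave 0.56 ± 0.16 (edgeR adjusted p = 0.0166), lost without combination replicate 2 (0.0673) or DEX replicate 1 (0.0708).

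AXL had 744, 814 and 705 CPM with both compounds, 693, 635 and 681 with DEX, 971, 890.2 and 899 with SH4-54, and 883, 914 and 915 without drug. All 6 wells with DEX were below the 6 without it. AXL fell with DEX (-0.43 ± 0.050, edgeR adjusted p = 5.21e-06) and was lower with both compounds than with SH4-54 (-0.29 ± 0.050, edgeR adjusted p = 0.000343) and than without drug (-0.26 ± 0.050, edgeR adjusted p = 0.000665). It was higher with both compounds than with DEX (0.17 ± 0.050, edgeR adjusted p = 0.0203), a call lost without combination replicate 2 (0.106) or DEX replicate 2 (0.0993). The interaction did not pass (0.15 ± 0.071, edgeR adjusted p = 0.252).

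CD44 had 344, 399 and 350 CPM with both compounds, 287, 274 and 276 with DEX, 525, 458 and 451 with SH4-54, and 433, 435 and 420 without drug. The 4 groups did not overlap. CD44 fell 1.54-fold with DEX (-0.62 ± 0.059 on the log2 scale, edgeR adjusted p = 5.55e-07). It was higher with both compounds than with DEX (0.39 ± 0.059, edgeR adjusted p = 0.000379), and lower than with SH4-54 (-0.39 ± 0.058, edgeR adjusted p = 8.02e-05) and than without drug (-0.24 ± 0.058, edgeR adjusted p = 0.00404). SH4-54 alone gave 0.16 ± 0.058 (edgeR adjusted p = 0.264, 95% interval 0.03 to 0.28). The interaction of 0.23 ± 0.082 did not pass (edgeR adjusted p = 0.126), but did without SH4-54 replicate 1 (0.0313).

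To compare levels between genes, CPM was divided by the kilobases of exon of each gene (GENCODE 29). Without drug the order was VIM at 709, AXL 185, CD44 70.4, CDH11 31.4, ZEB1 12.5, SNAI2 5.77, CDH1 2.31, ZEB2 1.13, SNAI1 0.668 and CDH2 0.336 CPM per kilobase, and no neighbours in it overlapped over the 3 wells. SNAI2 stood above ZEB1 in the wells with DEX, at 13.0 against 10.6 CPM per kilobase with both compounds and at 14.1 against 11.6 with DEX alone. With both compounds SNAI1 stood above CDH1, at 2.69 to 6.597 against 1.06 to 2.37 CPM per kilobase. With DEX alone SNAI1 was the lowest of the 10 at 0.240 CPM per kilobase, and its wells overlapped those of CDH2.

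The genes nearest in pattern were found among 12431 genes by the root mean square difference of centred log2 CPM over the 12 libraries. For SNAI1 they were the chemokine gene CCL26 (0.424) and the AP-1 gene FOS (0.526), where SNAI1 itself varied by 1.51 around its mean. CCL26 had 24.4 ± 7.9 CPM with both compounds, 0.975 ± 0.15 with DEX, 6.87 ± 0.64 with SH4-54 and 2.90 ± 0.12 without drug (SD, n = 3). For SNAI2 they were DKK1, a secreted Wnt inhibitor (0.0531), and the scaffold gene AKAP12 (0.0745). DKK1 had 1369 ± 75 CPM with both compounds, 1442 ± 11 with DEX, 581 ± 3.2 with SH4-54 and 612 ± 49 without drug (SD, n = 3). The nearest to ZEB1 were RBL2 (0.0332) and ATM (0.0344), to ZEB2 AP2B1 (0.0632) and SP1 (0.0643), and to VIM DCLK2 (0.0622) and ETS2 (0.0748). CDH1 lay nearest to TRANK1 (0.122) and PFKFB4 (0.152), and CDH2 to MXD1 (0.106) and ZNF318 (0.116). CDH11 lay near DENND5B (0.0453), AXL to MAFG (0.0383) and RANBP9 (0.0454), and CD44 to ZNF697 (0.059) and GATA6 (0.0691).

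Among 13 tested genes for other EMT transcription factors, 1, SNAI3, rose and 8 fell with DEX against no drug, with a median log2 fold change of -0.32. Over all tested genes, 21.9% rose and 23.2% fell. The SNAI3 call was lost with DESeq2 and without no-drug replicate 2. TCF4, which encodes an E-box binding factor, had 2.90 CPM with DEX and 9.63 without drug (-1.73 ± 0.095, edgeR adjusted p = 1.49e-09). The forkhead gene FOXQ1 had 18.6 and 43.9 CPM (-1.24 ± 0.060, edgeR adjusted p = 4.57e-10), and SOX4 fell by 0.68 on the log2 scale. When SH4-54 was added to DEX, 13% of all tested genes rose and 13.5% fell against DEX. In this list there were 5 rises, in FOXC1, FOSL1, FOXQ1, SOX4 and ETS1, and 1 fall, in HMGA2. There were 3 rises without DEX replicate 3, while the number of falls was 0 without any 1 DEX well or combination replicate 1 or 2, and 2 without combination replicate 3. FOXC1 had 9.99 CPM with both compounds and 6.88 with DEX (0.53 ± 0.096, edgeR adjusted p = 0.00124), and the AP-1 gene FOSL1 16.3 and 11.2 CPM (0.54 ± 0.098, edgeR adjusted p = 0.00129). Of 25 corepressors and degradation factors of SNAI and ZEB proteins, 1, SETDB1, rose and 10 fell with DEX, beside the same 21.9% and 23.2%. The number that rose was 2 without DEX replicate 2 or no-drug replicate 3 and 0 without DEX replicate 3. Among those that fell were the deacetylase gene HDAC1 (-0.30 ± 0.028), the methyltransferase gene EZH2 (-0.32 ± 0.047) and RCOR1 (-0.27 ± 0.044). Against DEX, 4 of them rose with both compounds, the chromatin remodeller gene SMARCA4 (0.24 ± 0.058), EZH2, COPS2 and LATS2, and 1, the ubiquitin ligase gene FBXL5 (-0.15 ± 0.032), fell. The number of rises was 2 without DEX replicate 2 or combination replicate 1 and 1 without DEX replicate 3, and 3 fell without combination replicate 3.

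Of 20 tested epithelial genes that SNAI and ZEB proteins are known to repress, 5 rose, PKP3, SPINT1, INADL, AP1M2 and ESRP2, and 10 fell with DEX against no drug. The shares of all tested genes were 21.9% and 23.2%. ELF3, an epithelial transcription factor gene, had 4.35 CPM with DEX and 18.3 without drug (-2.07 ± 0.10, edgeR adjusted p = 4.1e-10). MAL2, for a protein of apical transport, had 77.8 and 153 CPM (-0.97 ± 0.070, edgeR adjusted p = 3.01e-08), and the desmosomal gene PKP3 rose (0.36 ± 0.046, edgeR adjusted p = 1.39e-05). With both compounds against DEX, 13.5% of all tested genes fell and 13% rose by edgeR. Of the 20, 7 fell and 0 rose by edgeR and by DESeq2, with 9 lower and 0 higher at an unadjusted p below 0.05. The polarity gene INADL (-0.33 ± 0.071, edgeR adjusted p = 0.00421) and AP1M2, an adaptor of basolateral sorting (-0.17 ± 0.037, edgeR adjusted p = 0.00422), were among the 7. The median over the 20 was -0.15, against 0.00 over all tested genes. With SH4-54 against no drug, 2 of the 20 fell and 0 rose, where 0.599% of all genes passed in either direction. At an unadjusted p below 0.05, 6 were lower and 0 higher there, and the median was -0.12. In the interaction 0 of the 20 passed, with 3 higher and 1 lower at an unadjusted p below 0.05 and a median of -0.0047.

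Of 20 other cadherins 5 were tested, and 2 fell with DEX, where 23.2% of all tested genes did. CDH12 had 1, 0 and 1 counts with DEX and 51, 40 and 38 without drug, and it had 3, 1 and 3 counts with both compounds and 32, 33 and 41 with SH4-54. CDH24 fell by 0.29 on the log2 scale. Of the 5, 1 rose with both compounds against DEX, where 13% of all tested genes did. It was CDH23, which averaged below 1 CPM in every group. With DEX against no drug 0 of the 5 rose by edgeR, also at an unadjusted p below 0.05. Over the listed cadherins that each other fit tested, 1 rose by DESeq2 or in 10 of 12 fits with 1 library left out. DESeq2 was run on all rows with reads, and the other fits filtered genes anew. The cadherin that rose in them thus need not be among the 5. Of 14 catenins and linkers of adherens junctions, 3 rose and 6 fell with DEX, where 21.9% and 23.2% of all tested genes did. By adjusted p the falls were led by CTNNAL1 (-0.37 ± 0.036) and the alpha-catenin gene CTNNA1 (-0.26 ± 0.030). The largest of these falls was that of ARVCF (-0.61 ± 0.13). The nectin gene PVRL3 (0.25 ± 0.032), CTNNB1 and CTNNA3 rose. With both compounds against DEX, where 13% of all tested genes rose and 13.5% fell, 2 of the 14, CTNNAL1 and LIMA1, rose. The 2 that fell were CTNNA3 and the beta-catenin gene CTNNB1 (-0.17 ± 0.038). At most 1 rose without any 1 DEX well or combination replicate 1 or 2, and 1 fell without combination replicate 1 or 2, DEX replicate 1 or 2, any 1 SH4-54 well or no-drug replicate 3, or with DESeq2. CTNNAL1 was higher by 0.14 in that comparison (edgeR adjusted p = 0.0121), a call lost without combination replicate 2 (0.0534) or DEX replicate 3 (0.0562).

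With DEX against no drug, 21.9% of all tested genes rose and 23.2% fell. Of 7 relatives, ligands and processing enzymes of AXL, 5, PROS1, GAS6, TYRO3, VKORC1 and ADAM17, rose and 2 fell in that comparison. The number that rose was 3 without DEX replicate 2 or any 1 untreated well, and 2 without DEX replicate 3. PROS1, for the ligand protein S, had 98.1 CPM with DEX and 42.8 without drug (1.196 ± 0.069, edgeR adjusted p = 2.48e-09). The AXL relative MERTK had 22.9 and 38.4 CPM (-0.75 ± 0.045, edgeR adjusted p = 3.79e-09), and the carboxylase gene GGCX fell by 0.24 on the log2 scale. With both compounds against DEX, 13.5% of all tested genes fell and 13% rose by edgeR. Of the 7, 3 fell and 0 rose by edgeR and by DESeq2, with 3 lower and 1 higher at an unadjusted p below 0.05. Those that fell were PROS1, GAS6 and ADAM17. PROS1 had 69.7 CPM with both compounds and 98.1 with DEX (-0.49 ± 0.067, edgeR adjusted p = 0.000174), and the AXL ligand gene GAS6 185 and 220 CPM (-0.25 ± 0.035, edgeR adjusted p = 0.000187). GAS6 was also lower with SH4-54 alone, at 168 CPM against 192 without drug, while PROS1 had 43.7 and 42.8 CPM. With SH4-54 against no drug, 1 of the 7 fell and 0 rose, where 0.599% of all genes passed in either direction.

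Of 16 tested genes of CD44 and hyaluronan biology, 4 rose, RDX, HYAL2, HYAL3 and TMEM2, and 6 fell with DEX. Among all tested genes 21.9% rose and 23.2% fell. CEMIP, which acts in hyaluronan breakdown, had 93.9 CPM with DEX and 238 without drug (-1.34 ± 0.086, edgeR adjusted p = 8.72e-09). The hyaluronan receptor gene HMMR fell by 0.56 on the log2 scale, and RDX, for a linker of CD44 to actin, rose (0.26 ± 0.027, edgeR adjusted p = 1.79e-06). With both compounds against DEX, 13% of all tested genes rose and 13.5% fell. Of the 16, 4 rose, HAS3, MSN, SPP1 and MMP14, or 2 without DEX replicate 1 or combination replicate 2. The 4 that fell were HYAL2, RDX, the CD44 sheddase gene ADAM10 (-0.23 ± 0.040) and the hyaluronan synthase gene HAS2 (-0.35 ± 0.066).

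Of 20 other mesenchymal and cytoskeletal genes, 10 rose and 4 fell (NT5E, NES, SYNM and S100A4) with DEX against no drug, with a median log2 fold change of 0.17, while VIM, CDH11, AXL and CD44 fell. Over all tested genes, 21.9% rose and 23.2% fell. The fibronectin receptor gene ITGA5 had 238 CPM with DEX and 80.6 without drug (1.56 ± 0.067, edgeR adjusted p = 1.31e-10), and the ectonucleotidase gene NT5E, a mesenchymal surface marker, 282 CPM with DEX and 466 without drug (-0.72 ± 0.034, edgeR adjusted p = 3.13e-10). Against DEX, both compounds gave 2 rises, in the actin and filament linkers FLNA and PLEC, and 6 falls in this list. The shares of all tested genes in that comparison were 13% and 13.5%. The collagen cross-linking gene LOX had 36.9 CPM with both compounds and 62.5 with DEX (-0.75 ± 0.088, edgeR adjusted p = 6.09e-05), and TAGLN, an actin-binding gene, fell by 0.27 on the log2 scale. TAGLN was also lower with SH4-54 alone, at 79.2 CPM against 103 without drug, and LOX had 22.5 and 26.1 CPM. With SH4-54 against no drug, 1 of the 20 rose and 1 fell, where 0.599% of all genes passed in either direction. The comparisons with DEX alone share the DEX wells, so the lists' counts in them are not independent.

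**Figure D4:**
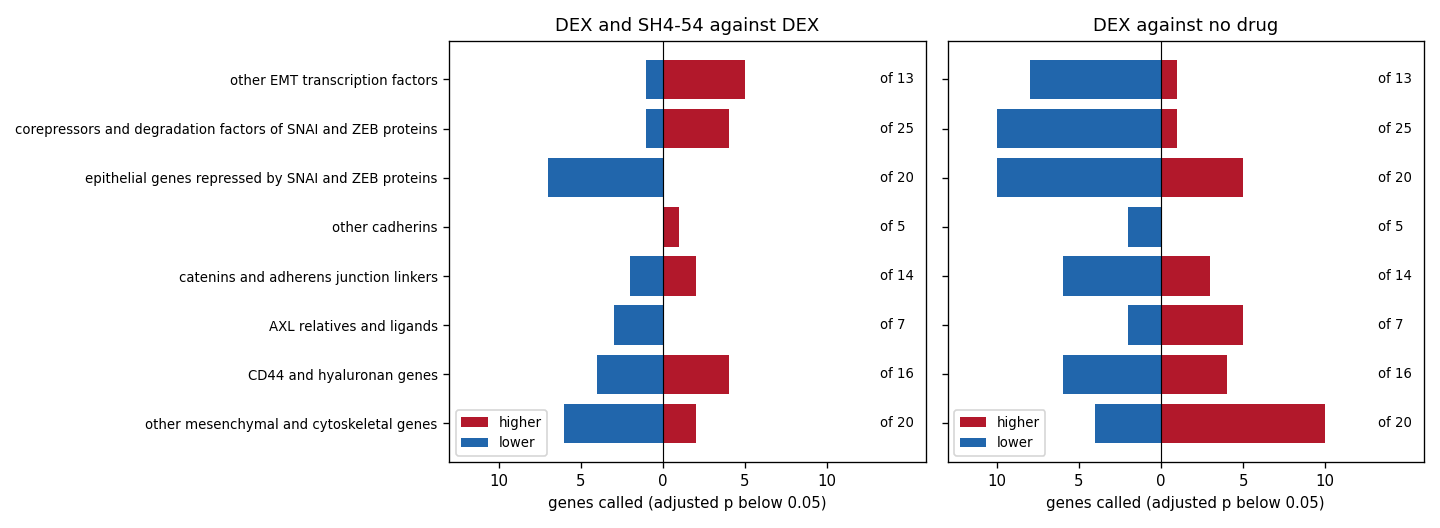
Number of genes of each list called higher (right of 0) or lower (left of 0) at an adjusted p below 0.05, with both compounds against DEX on the left and DEX against no drug on the right; the number tested stands beside each bar. Of the 20 epithelial genes, 0 were higher and 7 lower with both compounds than with DEX, and 5 higher and 10 lower with DEX than without drug. Of the 20 mesenchymal genes, these numbers were 2 and 6, and 10 and 4. Of all tested genes they were 13% and 13.5%, and 21.9% and 23.2%.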

How the data were processed

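The authors deposited whole-number read counts per gene symbol for 12 libraries of total RNA, ribosomal RNA removed, sequenced single-end with a stranded kit per the labels' protocols. Tools named are HISAT2 2.1.0, SAMtools and featureCounts 1.5.1, with genome hg19 or GRCh37, per the submitters' processing notes; no strand setting is given in those notes. Titles gave the groups; a treatment tag spells SH4-54 as SH5-54.

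In R 4.3.3 with edgeR 4.0.16 (limma 3.58.1), genes were filtered with filterByExpr, libraries scaled by TMM, and 1 quasi-likelihood model of 4 groups fitted to all 12 libraries (8 residual degrees of freedom) for 6 comparisons, with Benjamini-Hochberg adjustment over all genes tested. Standard errors divide the size of a log2 fold change by the square root of its F. The fits were tested on simulated data. Alternatives were DESeq2 1.42.0 (size factors, and its Wald test), no filter, a stricter filter, a replicate block, the compared groups alone and each library left out; list counts under DESeq2 and left-out libraries for lists, list genes and antisense rows were added after the data were seen. Libraries of a group differed beyond sampling noise. The deposited counts total 25577213 to 35758236 per library, so counting error weighs most on rows with few reads, such as SNAI1, CDH2, CDH12, CDH23, SPP1, SNAI3, DCN, PTPRC, PECAM1 and the antisense rows.

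The genes and the 10 lists were chosen with earlier results of these data known. Every one of the 10 genes is named, with up to 3 list genes of smallest adjusted p for DEX against no drug and 2 for both compounds against DEX (at least 1 CPM), and the 2 genes nearest in pattern; some items that this rule takes are not reported here. DCN, PTPRC, PECAM1, ESR1, PGR, VIM-AS1, ZEB1-AS1 and the other members of list counts of up to 5 were named after their values were seen.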

Additional observations from a re-analysis of the deposited data

Results flagged for a closer look

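For 9 results the SH4-54 effect with DEX differed from that without it by edgeR's interaction test. SNAI1 (3.34 on the log2 scale, edgeR adjusted p = 0.00949) and VIM (0.49, 0.00949) held in all 12 fits with 1 library left out. So did CTNNAL1 (0.27, 0.0118) and PROS1 (-0.52, 0.012). The others lost the call in some of the 12 fits: ITGA5 (-0.45, edgeR adjusted p = 0.0185) held in 9, VIM-AS1 (0.88, 0.0305) in 4, SOX4 (0.36, 0.0426) in 3, and LOX (-0.54, 0.0331) and CD68 (0.28, 0.0377) in 2 each. Their highest adjusted p was 0.0596 for ITGA5, 0.0756 for VIM-AS1, 0.103 for SOX4, 0.0898 for LOX and 0.101 for CD68. Causes were not tested.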

How the results depend on the processing

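Over the 10 genes and 6 comparisons, 342 of 350 values under other settings and 692 of 720 with 1 library left out kept direction and side of the threshold, and 0 values called in the shared fit reversed. The reversals were of values that did not pass: CDH11 with SH4-54 against no drug (0.0011 with the compared groups alone, -0.0342 to 0.0344 with 1 library left out), CDH2 with both compounds against DEX (-0.126 to 0.156), and ZEB2 (-0.0235 to 0.0887) and AXL (-0.0150 to 0.0488) with SH4-54 against no drug. Counts over all genes moved more. The 85 genes called with SH4-54 against no drug were 181 by DESeq2, 176 with no filter, 155 with the compared groups alone and 26 to 163 with 1 library left out. The 553 of the interaction were 848 with no filter and 204 to 2046, and the 3770 of both compounds against DEX 2213 to 4633, with 1 library left out. Of the 10 genes, 2 to 4 passed in the interaction, 4 without combination replicate 3. CDH1 with both compounds against no drug passed with no filter (edgeR adjusted p = 0.0105). ZEB1 passed in the interaction without combination replicate 3 (0.0135). The causes were not tested.

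No effect shared by same-numbered wells was seen: deviations of same-numbered libraries correlated at -0.0975 to 0.0926 over 18 pairs, and 2 of 12 libraries correlated best with their own number. These correlations cannot show whether wells were set up in numbered sets. With the replicate block, CDH1 with both compounds against no drug was -0.51 (edgeR adjusted p = 0.0496, against 0.0542 without the block). Depth limits SNAI1 with DEX (7 to 13 counts per library) most.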
